A study of Mus musculus with 7 samples.

Results

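Tail dermis of wild-type (WT) mice was compared with ear dermis of WT mice at postnatal day 50, with 1 RNA-seq library of sorted skin cells on each side. The genotype of both is Wt/Wt and the strain label of both is CD1/C3H. The table holds 22552 gene symbols. Of these, 12471 (55.3%) are autosomal, stand above 0 FPKM in the tail library and reach 1 FPKM in tail or ear. FPKM is fragments per kilobase of transcript, scaled to the mapped fragments of a library, so levels can be set beside each other between genes. Of these genes 12031 are protein coding and 440 are of other kinds. Levels in WT dorsal dermis, also 1 library of the same age, strain and genotype, are given where they help to place the tail and ear values. The tail library carries no cell type label of its own, and its layer is known from its title alone. With no replicate in any group, the differences below stand without a replicate check and without a test.

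The dermis is the connective layer of skin, built by fibroblasts that secrete collagens, elastic fibres and proteoglycans. It also houses hair follicles, vessels, nerves, pigment cells and immune cells. Hox genes encode transcription factors that are laid out in 4 clusters, and their order along a cluster follows the body axis: genes at the 3' end, with low numbers, act towards the head, and genes at the 5' end, with high numbers, act towards the tail. Skin fibroblasts are known to keep such a positional pattern in the adult. The mouse ear is a flap of skin around a plate of elastic cartilage. Tail skin bears scales with sparse hairs, and pigmented strains keep melanocytes there outside the follicles.

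The libraries differ in more than their body position. Xist, a female-specific RNA that silences an X chromosome, reached 41.5 FPKM in tail dermis, against 0.0434 FPKM in ear dermis. Ddx3y, from the Y chromosome, had a listing of 0 in tail dermis, against 34.7 FPKM in ear dermis. The tail values carry at most 2 decimals, against up to 9 for ear, and 5928 symbols were listed at 0 in tail, against 3872 in ear. Of 222 symbols listed at 0 in tail dermis with at least 10 FPKM in each of the other 6 libraries of the table, 185 (83.3%) are older or unmatched gene names. Among 4663 such symbols above 0 in tail dermis the number was 260 (5.58%). Body position, sex and the making of the column therefore cannot be told apart as sources of any difference between these 2 libraries. Symbols listed at 0 in tail dermis were left out, including 638 autosomal symbols at 1 FPKM or more in ear dermis. Col1a1 and Col3a1, which encode the main fibrillar collagens of skin, were left out of all counts because they are listed at 0 in other dermal libraries, as a failed estimate would be. Col1a1 stood at 10356 FPKM in tail dermis and 4362 FPKM in ear dermis.

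Differences were taken on the log2(FPKM + 1) scale, tail minus ear, and are called log2 differences below. A gene was called higher or lower in tail dermis where its log2 difference was 1 or more, or -1 or less. Of 12469 genes compared, 847 (6.79%) were higher and 2839 (22.8%) were lower in tail dermis, so that 3686 (29.6%) were called and 8783 were neither. The median log2 difference was -0.45, and the middle range of genes, from the 25th to the 75th percentile, ran from -0.95 to 0.10. Genes at 5 FPKM or more in both libraries had a median ratio of 0.795, tail over ear, a shift of -0.33 on the log2 scale. Dividing the tail values by that ratio gave 1267 higher genes (10.2%) and 1749 lower genes (14%), together 24.2%. Of the called genes 42% were then higher, against 23% in the values as deposited. The size of the surplus of lower genes thus depends on the scaling, and each gene or list below is read against the median of -0.45. The counts of each list are read against the shares of 6.79% higher and 22.8% lower. A count near those shares says nothing particular about its list. Counts under the divided values are called rescaled counts. The balance of the directions changed with the size of the difference: 279 genes were higher and 366 lower by 2 or more, 140 were higher and 108 lower by 3 or more, and 70 were higher and 36 lower by 4 or more. At the edge of the rule, Klf5 had a log2 difference of 1.00156 and Ntrk2 one of 0.999967, while Lrba stood at -1.00013 and Fam160a1 at -0.999974. The filter had a similar edge, with 154 compared genes peaking between 1 and 1.1 FPKM and 147 genes just outside it between 0.9 and 1 FPKM.

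**Figure D1:**
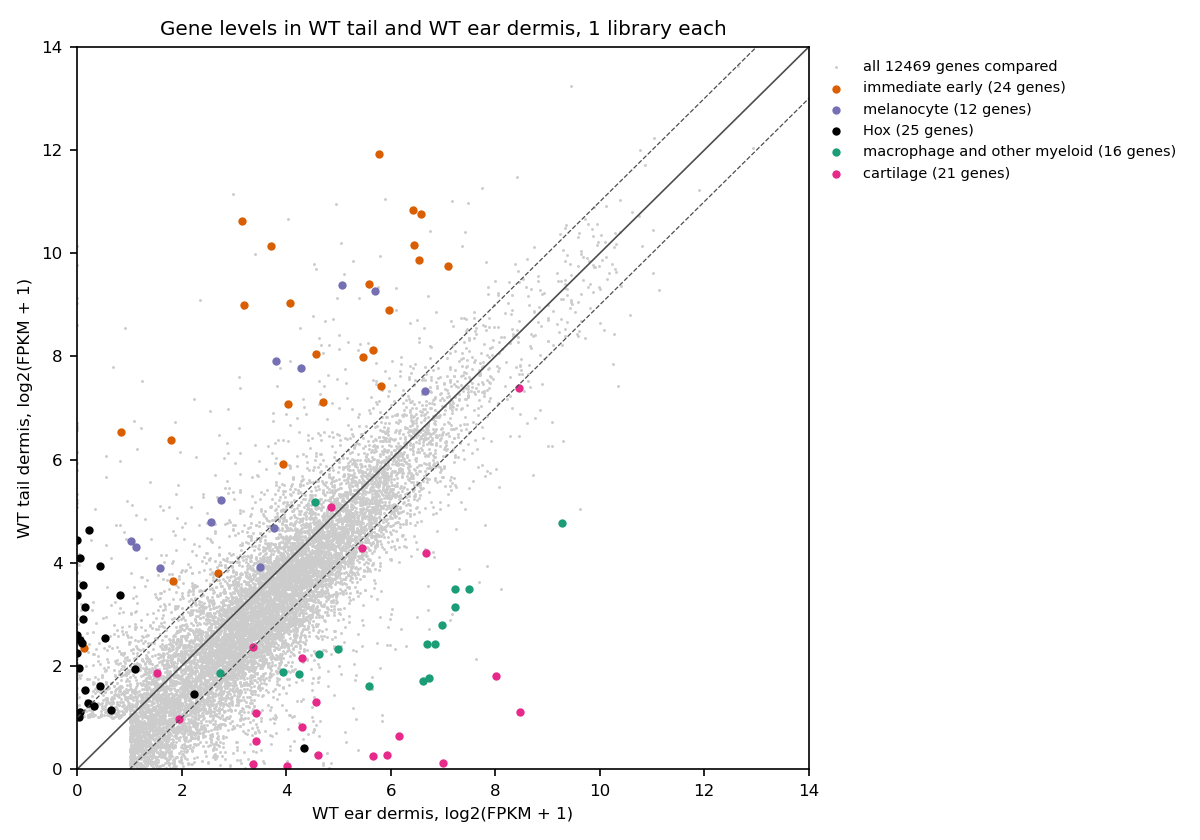
Each point is 1 of the 12469 genes compared, with its level in WT ear dermis on the x axis and in WT tail dermis on the y axis, both as log2(FPKM + 1). The solid line marks equal levels and the dashed lines a log2 difference of 1 and -1, and immediate early genes and most melanocyte and Hox genes lie above the lines while most macrophage and cartilage genes lie below them.

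Hox genes differed widely between tail and ear dermis. Of the 25 Hox genes that could be compared, 19 were higher in tail dermis and 1, Hoxa2, was lower. Only Hoxa2, Hoxd8 and Hoxd9 reached 1 FPKM in ear dermis. The other compared Hox genes passed the filter through their tail level alone, so they could only stand above the ear. The counts by direction and the cluster medians were thus largely fixed by the filter. In the Hoxc cluster 7 of 8 were higher, with a median log2 difference of 2.95. These counts depend on the pseudocount, since many of the genes are low: with a pseudocount of 5 in place of 1, 3 genes of Hoxa, 3 of Hoxb and 4 of Hoxc were higher, against 6, 6 and 7 with 1. Over all settings the median ran from 0.57 to 4.20 in Hoxa, from 0.85 to 3.45 in Hoxb and from 1.29 to 5.05 in Hoxc. Hoxc12 stood at 24 FPKM in tail dermis, 0.387 FPKM in dorsal dermis and 0.172 FPKM in ear dermis. Hoxc11 stood at 16 FPKM in tail, 0.217 in dorsal and 0.0386 in ear dermis. The log2 differences of these 2 genes, tail minus ear, were 4.41 and 4.04, and for both the dorsal level was close to that of the ear. Hoxc13, which is needed for the hair shaft and nails, stood at 14.3 FPKM in tail, 4.0 in dorsal and 0.345 in ear dermis. Hoxc10 stood at 10.9 FPKM in tail, 5.8 in dorsal and 0.0804 in ear dermis.

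The middle of the Hoxc cluster had another order. Hoxc8 stood at 1.32 FPKM in tail, 29.5 in dorsal and 0.241 in ear dermis, and it missed the rule with a log2 difference of 0.90. Hoxc6 stood at 4.63 FPKM in tail, 18 in dorsal and 0.0396 in ear dermis. Hoxc9 stood at 1.89 FPKM in tail, 7.24 in dorsal and 0.109 in ear dermis. These 3 genes were highest in the dorsal library. Hoxc4 stood at 4.41 FPKM in tail, 5.9 in dorsal and 0.0618 in ear dermis. Hoxc5 stayed under the filter, at 0.51 FPKM in tail and 0.0109 FPKM in ear dermis.

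The Hoxb and Hoxa clusters showed the same step at their 5' ends. Hoxb13, the last gene of its cluster (chromosome 11, 96194316 to 96196610), stood at 20.8 FPKM in tail dermis and was listed at 0 in dorsal dermis, in ear dermis and in the other 4 libraries. Hoxa13 stood at 3.79 FPKM in tail dermis and was likewise listed at 0 in all the others. A listing at 0 in all 6 other libraries can be a failed estimate, so the step at Hoxb13 and Hoxa13 is uncertain. Both are still counted among the higher genes and in the medians of their clusters. Hoxa11 stood at 9.34 FPKM in tail dermis, against 0.0303 FPKM in dorsal dermis and a listing at 0 in ear dermis. Among tail, dorsal and ear dermis, the tail library alone had more than 1 FPKM of any of these 3 genes. Hoxa9 stood at 5.06 FPKM in tail and 1.91 FPKM in dorsal dermis and was listed at 0 in ear dermis, and Hoxa10 stood at 6.49 FPKM in tail, 2.34 in dorsal and 0.0842 in ear dermis. Hoxb9 stood at 7.85 FPKM in tail, 3.68 in dorsal and 0.11 in ear dermis. These genes were shared by tail and dorsal skin and near the floor in the ear.

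Lower-numbered genes of both clusters were also higher in tail than in ear dermis. Hoxb2 stood at 9.4 FPKM in tail, 11.4 in dorsal and 0.771 in ear dermis, and Hoxb3 at 4.85 FPKM in tail, 3.88 in dorsal and 0.451 in ear dermis. The log2 differences, tail minus ear, were 2.55 for Hoxb2, 2.01 for Hoxb3, 1.92 for Hoxb6, 1.17 for Hoxb4, 1.08 for Hoxa7 and 1.06 for Hoxa5. Hoxb8, at 1.01 FPKM in tail and 0.0225 FPKM in ear dermis, missed the rule with 0.98 but passed it after rescaling. Hoxa3 missed it too, with 1.2 FPKM in tail and 0.564 FPKM in ear dermis. Hoxa2, which patterns the neural crest from which the outer ear forms, stood at 0.33 FPKM in tail, 2.61 in dorsal and 19.3 in ear dermis, a log2 difference of -3.93. It was the only Hox gene called lower in tail dermis.

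The Hoxd cluster was low in both libraries. Hoxd8 stood at 1.74 FPKM in tail, 8.58 in dorsal and 3.71 in ear dermis, and Hoxd9 at 2.84 FPKM in tail, 2.56 in dorsal and 1.16 in ear dermis. Neither passed the rule as deposited. Hoxd1, Hoxd3, Hoxd4, Hoxd10 and Hoxd11 stayed under 1 FPKM in both libraries, as did Hoxa4, Hoxa6, Hoxb1, Hoxb5 and Hoxb7, and Hoxd12 and Hoxd13 were listed at 0 in both. Summed over paralogs 9 to 13, the Hoxc level was 67.1 FPKM in tail, 17.6 in dorsal and 0.745 in ear dermis. The Hoxb sum was 28.7 FPKM in tail, 3.68 in dorsal and 0.11 in ear dermis, and the Hoxa sum was 24.7, 4.28 and 0.0842 FPKM in the same order. The Hoxb and Hoxa sums hold Hoxb13 and Hoxa13, whose listings at 0 are uncertain. Over paralogs 1 to 8 the Hoxc sum was instead highest in dorsal dermis, at 10.9 FPKM in tail, 55.6 in dorsal and 0.353 in ear dermis.

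**Figure D2:**
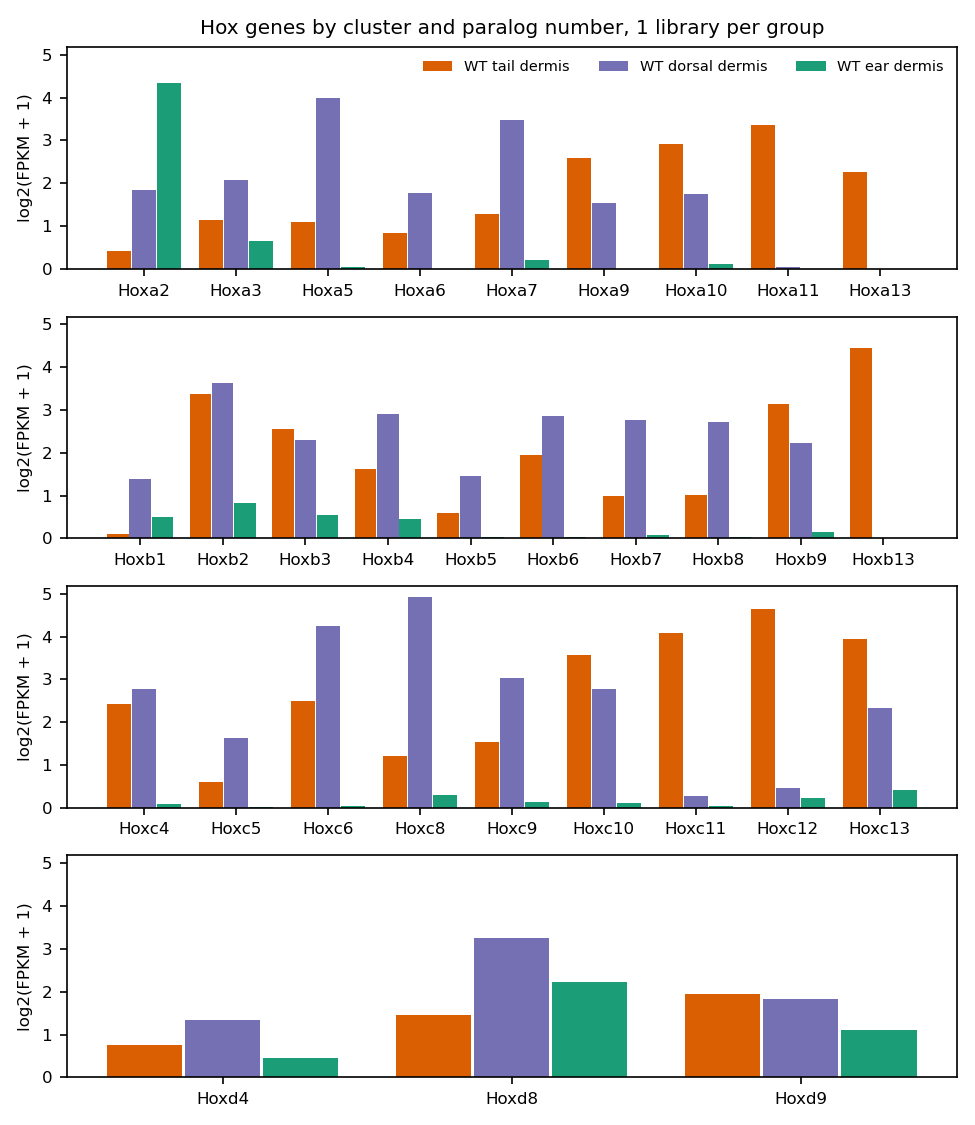
Bars give log2(FPKM + 1) of the Hox genes that reach 1 FPKM in any of the 3 libraries drawn, by cluster and paralog number, in WT tail, WT dorsal and WT ear dermis, 1 library each. The genes of paralog numbers 11 to 13 in the Hoxa, Hoxb and Hoxc clusters are tallest in tail dermis, most of the middle numbers in dorsal dermis, and Hoxa2 in ear dermis.

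Among 35 other transcription factors with known regional patterns, 8 were higher and 9 were lower in tail dermis, with a median log2 difference of -0.11 that turned to 0.06 after rescaling, when 13 were higher and 7 lower. Foxd1 stood at 32.9 FPKM in tail, 1.14 in dorsal and 2.37 in ear dermis. En1, known from ventral limb skin and a lineage of trunk fibroblasts, stood at 8.23 FPKM in tail, 6.24 in dorsal and 0.0467 in ear dermis. Tbx4, a hindlimb factor, stood at 6.57 FPKM in tail, 0.235 in dorsal and 0.398 in ear dermis. All 3 were higher in tail dermis, by log2 differences of 3.33, 3.14 and 2.44, and so was Alx4 by 2.55, at 16.7 FPKM in tail and 2.02 FPKM in ear dermis. On the ear side stood Dlx5 and Dlx6, factors known from the jaw. Dlx6 stood at 0.11 FPKM in tail, 0.463 in dorsal and 15.1 in ear dermis, and Dlx5, its neighbour, at 0.90 FPKM in tail, 3.42 in dorsal and 10.5 in ear dermis. Emx2 stood at 0.29 FPKM in tail and 15.8 FPKM in ear dermis, and Meis2 at 5.33 FPKM in tail and 20.6 FPKM in ear dermis. Their log2 differences were -3.86 for Dlx6, -2.59 for Dlx5, -3.70 for Emx2 and -1.77 for Meis2. En1 and Tbx4 passed the filter through their tail level alone, so they could only stand above the ear. Dlx5, Dlx6 and Emx2 passed it through their ear level alone and could only stand below the ear. The counts by direction in this list were thus in part fixed by the filter. Sim2, a factor outside the list, stood at 0.010 FPKM in tail, 0.125 in dorsal and 27.1 in ear dermis, the only transcription factor among the 15 genes furthest apart on the lower side.

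Most cartilage genes were lower in tail dermis. Of 21 compared, 17 were lower in tail dermis and none was higher, with a median log2 difference of -3.27 (15 lower after rescaling). Cytl1, a secreted protein of chondrocytes (chromosome 5, 37735519 to 37739820), stood at 1.16 FPKM in tail, 3.61 in dorsal and 354 in ear dermis. Its log2 difference of -7.36 was the widest in that direction among the genes that could be named. Ucma, a matrix protein of cartilage, stood at 0.080 FPKM in tail, 0.755 in dorsal and 127 in ear dermis. Chad, a leucine-rich protein that binds chondrocytes, stood at 2.49 FPKM in tail, 1.73 in dorsal and 257 in ear dermis. Dorsal dermis was low for all 3, on the side of the tail. Col2a1, the main collagen of hyaline cartilage, stood at 0.040 FPKM in tail and 15.1 FPKM in ear dermis. Acan, its main proteoglycan, stood at 3.46 FPKM in tail and 18.8 FPKM in ear dermis. Col9a1, Cilp2 and Lect1 (chondromodulin) had log2 differences of -5.40, -5.65 and -5.51. Like Ucma and Col2a1, they stood under 1 FPKM in tail dermis and passed the filter through their ear level alone. Such genes could only stand below the ear, so the counts and the median of this list were in part fixed by the filter. Sox9, which drives cartilage and also hair follicle stem cells, stood at 1.46 FPKM in tail, 27.3 in dorsal and 22.7 in ear dermis, so that here the dorsal level lay with the ear. Sox6 and Matn4 did not pass the rule, and Matn4 stood at 32.6 FPKM in tail and 28.1 FPKM in ear dermis. In a bulk library, fewer cells of a type and less RNA per cell cannot be told apart, here and for every marker list below.

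Gdf5, a growth factor of joints and cartilage, stood beside them at 0.090 FPKM in tail, 0.117 in dorsal and 25.1 in ear dermis, a log2 difference of -4.58. Bmp5, which is needed for the size of the mouse ear, stood at 15.2 FPKM in tail, 3.27 in dorsal and 70.3 in ear dermis. Both were lower in tail dermis. Of 4 bone genes compared, 1, Alpl, was higher. Of 8 tendon genes 2 were higher, Egr1 and Col12a1, and Thbs4 was lower, at 50.4 FPKM in tail and 224 FPKM in ear dermis. Alpl is counted again among the dermal papilla genes below, and Col12a1 among the collagens. Scx, the defining factor of tendon, stood at 5.84 FPKM in tail and 8.13 FPKM in ear dermis. Of 7 skeletal muscle genes only Tnni2 was called, lower at 0.43 FPKM in tail and 7.36 FPKM in ear dermis. The muscle factors Myod1, Myog and Pax7 are listed at 0 in tail dermis and were left out by the filter, with 1.28, 1.03 and 1.1 FPKM in ear dermis. With genes listed at 0 in the tail kept, 4 muscle genes were lower.

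Matrix genes split by family. Of 16 fibrillar and network collagens 8 were higher and 2 were lower, with a median log2 difference of 0.95, against -0.45 over all genes. Col12a1, a collagen that decorates fibrils, stood at 307 FPKM in tail, 8.83 in dorsal and 46.1 in ear dermis. Col15a1, of the basement membrane zone, stood at 187 FPKM in tail, 103 in dorsal and 30.4 in ear dermis. The log2 differences were 2.71 for Col12a1, 2.58 for Col15a1, 2.33 for Col5a3 and 1.68 for Col18a1. Col8a1, a short-chain network collagen, ran the other way, at 32 FPKM in tail, 8.43 in dorsal and 791 in ear dermis, and Col8a2 was lower too. The abundant chains Col5a1, Col5a2, Col6a1, Col6a2 and Col6a3 all stayed within the rule, and they form collagens V and VI.

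Of 25 elastic fibre and adhesive matrix genes 7 were higher and 3 were lower (10 higher and 1 lower after rescaling). Fbln1 stood at 128 FPKM in tail, 73.6 in dorsal and 19.4 in ear dermis, and Thbs2 at 417 FPKM in tail, 73.4 in dorsal and 89.6 in ear dermis. Elastin itself, Eln, stood at 649.6 FPKM in tail and 384 FPKM in ear dermis and missed the rule with 0.76. The lower genes as deposited were Ltbp2, Fn1 and Thbs1, and Fn1, fibronectin, stood at 183 FPKM in tail, 279 in dorsal and 394 in ear dermis. Of 11 small leucine-rich proteoglycans, which space collagen fibrils, none was higher and 4 were lower. Aspn stood at 75.4 FPKM in tail, 311 in dorsal and 546 in ear dermis. Decorin, Dcn, was the most abundant of them in both libraries, at 4211 FPKM in tail and 7827 FPKM in ear dermis, and its log2 difference of -0.89 stayed within the rule. Fmod stood at 1071 FPKM in tail, 11.2 in dorsal and 624 in ear dermis, so both tail and ear lay far above dorsal dermis for this gene.

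Among 17 metalloproteinases and inhibitors 4 were higher and 3 were lower, and 8 and 2 after rescaling. Adamts4, which cleaves aggrecan and versican, stood at 184 FPKM in tail, 9.77 in dorsal and 1.36 in ear dermis, a log2 difference of 6.29. Timp3, a matrix-bound inhibitor, stood at 106 FPKM in tail, 91.1 in dorsal and 539 in ear dermis. Of 9 hyaluronan genes 2 were higher. Has1, a hyaluronan synthase, stood at 222 FPKM in tail, 35.7 in dorsal and 0.611 in ear dermis. Tnfaip6, which links proteins to hyaluronan, stood at 329 FPKM in tail, 78.1 in dorsal and 23.7 in ear dermis. For both genes the dorsal level lay between tail and ear. Has2 did not pass the rule, at 9.83 FPKM in tail and 6.11 FPKM in ear dermis.

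Markers of dermal cells were present in both libraries. Pdgfra, the receptor that defines dermal fibroblasts, stood at 79.9 FPKM in tail, 55.3 in dorsal and 96.6 in ear dermis, and Vim at 1791 FPKM in tail and 1569 FPKM in ear dermis. Of 13 fibroblast genes 2 were higher and 4 were lower, beside 6.79% and 22.8% of all genes. Pi16, a marker of fibroblasts around vessels, stood at 1180.4 FPKM in tail, 137 in dorsal and 32.1 in ear dermis, a log2 difference of 5.16, and Thy1 was higher by 1.16. Ly6a stood at 176 FPKM in tail, 815 in dorsal and 475 in ear dermis, and S100a4 at 789 FPKM in tail and 2062 FPKM in ear dermis. Both were lower in tail dermis, as were Fap and Dlk1.

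Of 18 genes of the dermal papilla, a knot of fibroblasts inside the hair bulb, 8 were higher and none was lower, with a median log2 difference of 0.92 (4 higher with a pseudocount of 5). Crabp1, a carrier of retinoic acid, stood at 653 FPKM in tail, 39.5 in dorsal and 52.7 in ear dermis. Crabp2 stood at 25.6 FPKM in tail, 28 in dorsal and 4.03 in ear dermis. Bmp4 stood at 84.3 FPKM in tail, 42 in dorsal and 21.5 in ear dermis, and Bmp6, Alpl, Prdm1, Corin and Fgf10 were also higher. Sox2 and Wif1, at 155 FPKM in tail and 218 FPKM in ear dermis, stayed within the rule.

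Most vessel genes leaned towards the tail. Of 13 endothelial genes 9 were higher and none was lower, with a median log2 difference of 1.20 and a summed level of 189.9 FPKM in tail, 62.2 in dorsal and 72.5 in ear dermis. With a pseudocount of 5 only 3 of them were higher, with one of 0.1 there was 1 lower gene, and the median lay between 0.80 and 1.51 over all settings. Pecam1 stood at 30.4 FPKM in tail, 9.75 in dorsal and 7.69 in ear dermis, and Plvap, of fenestrated capillaries, at 59.9 FPKM in tail, 15.6 in dorsal and 12.8 in ear dermis. Erg, an endothelial factor that chondrocytes also make, stood at 8.45 FPKM in tail, 0.922 in dorsal and 17.2 in ear dermis. Of 13 genes of smooth muscle, pericytes and dermal sheath 5 were higher and none was lower, with Tagln at 135 FPKM in tail, 80.2 in dorsal and 28.5 in ear dermis. Acta2 stood at 113 FPKM in tail and 63.9 FPKM in ear dermis and missed the rule. Of 5 lymphatic genes, Flt4 and Ccl21a were higher, and 1 of them with a pseudocount of 5. Ccl21a has near-identical copies and is listed at 0 in all 6 other libraries, so its value is uncertain. Of 10 Schwann cell genes 3 were higher and 1 lower. Mbp, a myelin protein, stood at 13.5 FPKM in tail and 15.3 FPKM in ear dermis and did not pass. Fabp4, which fat cells and capillaries both make, was the only one of 8 adipocyte genes that was higher, at 183 FPKM in tail and 23.6 FPKM in ear dermis. Dgat2 and Pparg were lower, by log2 differences of -2.41 and -1.42, and the list median was -0.42. Adipoq, which defines fat cells, stayed under 1 FPKM in both.

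Pigment genes were mostly higher in tail dermis. Of 12 melanocyte genes 9 were higher and none was lower (11 after rescaling), with a median log2 difference of 2.82. Their summed level was 2055 FPKM in tail, 407 in dorsal and 252 in ear dermis. Promoters of the 3 melanin enzymes in this list are shown because each holds the M-box core TCATGTG, the element that MITF, the master factor of the lineage, is known to bind. The windows are RefSeq sequences of GRCm38.p6, read 5' to 3' on the strand of the gene, with the motif in capitals on either strand. Tyr lies at chr7:87493513-87493554 on the minus strand, Tyrp1 at chr4:80834146-80834192 on the plus strand and Dct at chr14:118052371-118052496 on the minus strand.
Tyr: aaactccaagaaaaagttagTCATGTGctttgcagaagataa
Tyrp1: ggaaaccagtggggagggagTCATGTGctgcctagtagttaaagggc
Dct: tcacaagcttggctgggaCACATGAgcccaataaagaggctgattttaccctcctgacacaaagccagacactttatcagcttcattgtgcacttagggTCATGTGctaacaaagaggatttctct
The M-box letters were searched on both strands from 250 bases before to 50 bases after each start site. It occurred in 4 of the 8 melanocyte genes with a promoter in the table (Tyr, Tyrp1, Dct and Mc1r), against 4.31% of 27025 genes. A match describes the letters and is neither a site nor a cause.

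Tyr, tyrosinase, the first enzyme of melanin synthesis, stood at 36.1 FPKM in tail, 8.69 in dorsal and 5.77 in ear dermis. Tyrp1 stood at 217 FPKM in tail, 22.7 in dorsal and 18.5 in ear dermis. Dct, dopachrome tautomerase, stood at 613 FPKM in tail, 146 in dorsal and 50.7 in ear dermis. In all 3 the tail level was the highest and the ear level the lowest, with log2 differences of 2.45, 3.48 and 3.57. Pmel, which forms the fibrils of the melanosome, stood at 669.6 FPKM in tail, 43 in dorsal and 32.6 in ear dermis. Mlana stood at 241 FPKM in tail, 59 in dorsal and 13 in ear dermis. Oca2, Slc45a2 and the receptor Mc1r were higher by 3.40, 3.18 and 2.32. Sox10, shared by melanocytes and Schwann cells, stood at 26.8 FPKM in tail, 5.5 in dorsal and 4.89 in ear dermis. The genes that missed the rule were Mitf, Kit and Gpnmb. Mitf stood at 14.1 FPKM in tail and 10.3 FPKM in ear dermis. Kit, shared with mast cells, stood at 24.6 FPKM in tail and 12.6 FPKM in ear dermis. Gpnmb, shared with macrophages, stood at 159.6 FPKM in tail and 99.6 FPKM in ear dermis. The part of other cells in these values was not tested.

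Macrophage genes showed the reverse. Of 16 macrophage and other myeloid genes 14 were lower in tail dermis and none was higher, with a median log2 difference of -3.98. Their summed level was 127 FPKM in tail, 1593 in dorsal and 1799 in ear dermis. Mrc1, the mannose receptor of tissue macrophages, stood at 2.4 FPKM in tail, 98.5 in dorsal and 105 in ear dermis. Cd163 stood at 2.28 FPKM in tail, 41.5 in dorsal and 97.5 in ear dermis. Csf1r, the receptor on which macrophages depend, stood at 10.3 FPKM in tail, 75.3 in dorsal and 149 in ear dermis. Dorsal and ear dermis were thus both far above the tail for these 3 markers. C1qa, C1qb and C1qc had log2 differences of -4.00, -4.27 and -4.08, and Ptprc, CD45, the marker of all white blood cells, one of -2.67. Lyz1 and Lyz2 are close copies, so the split between them is uncertain, and both were lower. Cd14 stood at 35 FPKM in tail and 22.5 FPKM in ear dermis, and Itgam at 2.63 FPKM in tail and 5.68 FPKM in ear dermis, and neither passed the rule. Outside the list, Pf4, a chemokine of platelets and macrophages, stood at 3.37 FPKM in tail, 81.9 in dorsal and 196 in ear dermis, and Ms4a7 at 0.92 FPKM in tail and 56.3 FPKM in ear dermis.

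Other immune genes went with them in part. Of 8 class II histocompatibility genes, which antigen-presenting cells display, 7 were lower and none was higher, with a median of -2.17. Cd74 stood at 231 FPKM in tail, 801 in dorsal and 1215 in ear dermis, and H2-Aa at 81.6 FPKM in tail, 319 in dorsal and 632 in ear dermis. Of 10 class I genes 1 was higher and none was lower, so class I and class II differed within these libraries. The higher one, H2-Q7, has near-identical copies and is uncertain, and H2-K1 stood at 128 FPKM in tail and 107 FPKM in ear dermis. Of 9 T cell and Langerhans cell genes 6 were lower and none was higher (4 lower after rescaling). Cd3g stood at 9.19 FPKM in tail, 121 in dorsal and 23.6 in ear dermis, and Cd207, langerin, at 7.86 FPKM in tail and 8.55 FPKM in ear dermis did not pass. Of 10 mast cell genes 2 were higher and 4 lower, and the median of -0.13 turned to 0.19 after rescaling. Cma1 stood at 54.3 FPKM in tail, 14.3 in dorsal and 124 in ear dermis and Cpa3 at 25.6 FPKM in tail, 16 in dorsal and 87.7 in ear dermis, both lower. Tpsb2 and Hdc were higher, with Tpsb2 at 138 FPKM in tail and 51.8 FPKM in ear dermis. Of 15 interferon-stimulated genes 1, Ifit3, was lower and none was higher. Of 4 red blood cell genes 2 were lower. Of these, Hbb-b1 stood at 2.9 FPKM in tail and 54.6 FPKM in ear dermis, and it shares reads with its copies.

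Genes of keratinocytes, the cells of the epidermis and follicle wall, were in part lower in tail dermis. Of 11 basal keratinocyte genes 6 were lower and none was higher, with a median of -2.07, and their summed level was 149.7 FPKM in tail, 6447 in dorsal and 798 in ear dermis. Krt5 stood at 43.2 FPKM in tail, 2377 in dorsal and 267 in ear dermis, and Krt15, of follicle stem cells, at 11.3 FPKM in tail, 2462 in dorsal and 205 in ear dermis. For both keratins tail and ear dermis lay far below dorsal dermis. Of 11 suprabasal genes 5 were lower and Sbsn was higher. The other keratinocyte lists lay nearer to the shares of all genes, 6.79% higher and 22.8% lower, and are given as counts alone. Of 10 hair follicle stem cell genes Krt15 and Sox9 were lower and none was higher, and Lgr5 stood at 4.21 FPKM in tail and 4.2 FPKM in ear dermis. Of 11 sebaceous genes 3 were lower and 1, Elovl4, was higher. Acsbg1 had the widest difference of them, at 1.48 FPKM in tail and 18.3 FPKM in ear dermis.

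A few keratins of the growing hair and of hard tissue went the other way. Krt36 stood at 14.9 FPKM in tail and 0.592 FPKM in dorsal dermis and was listed at 0 in ear dermis. Krt71 stood at 2.56 FPKM in tail, 4.19 in dorsal and 0.0279 in ear dermis, and Krt25 at 2.46 FPKM in tail, 5.4 in dorsal and 0.019 in ear dermis. These were the 3 higher genes of 6 compared, out of 21 in the list of growing hair. All 3 passed the filter through their tail level alone. With a pseudocount of 5 only 1 was higher, and over all settings the list median ran from 0.06 to 2.40. Krt84, chosen after its values were seen, stood at 17 FPKM in tail, 0.0392 in dorsal and 0.0232 in ear dermis. The keratinocyte levels differed between tail and ear beside every other list given here, and their part in those results was not tested.

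**Figure D3:**
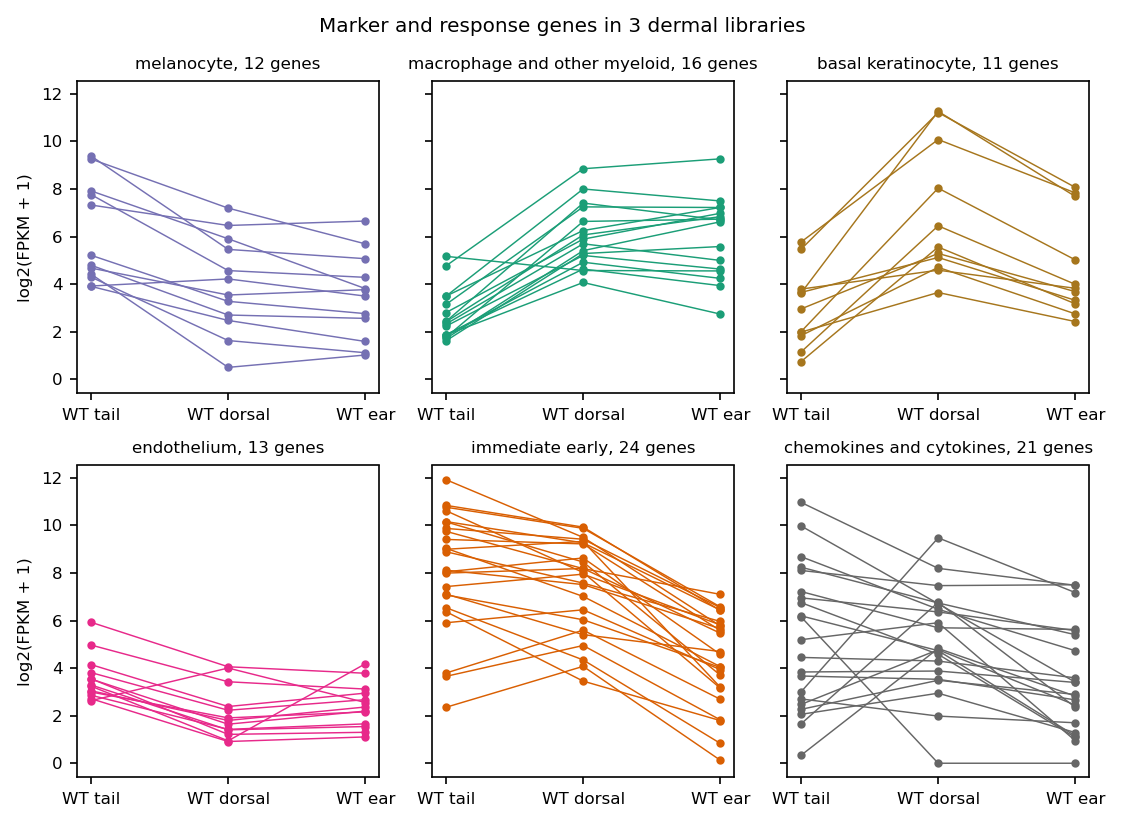
Each line is 1 gene and each point its log2(FPKM + 1) in WT tail, WT dorsal and WT ear dermis, 1 library each, for the compared members of 6 lists. Most melanocyte and endothelial genes are highest in tail, macrophage genes are low in tail and high in both others, basal keratinocyte genes peak in dorsal dermis, and immediate early genes are high in tail and dorsal dermis.

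Immediate early genes, which cells switch on within minutes of a stimulus, stood high in tail dermis. All 24 of 24 were higher in tail dermis, with a median log2 difference of 3.40 (22 of 24 with a pseudocount of 5). Their summed level was 16811 FPKM in tail, 7823 in dorsal and 936 in ear dermis. Fosb stood at 1573 FPKM in tail, 259 in dorsal and 7.91 in ear dermis. Nr4a1 stood at 1136 FPKM in tail, 352 in dorsal and 12 in ear dermis. Zfp36, which speeds the decay of cytokine RNAs, stood at 3887 FPKM in tail, 722 in dorsal and 53.8 in ear dermis. For all 3 the dorsal level lay between the other two and well above the ear. Atf3 was instead highest in dorsal dermis, at 510.5 FPKM in tail, 642 in dorsal and 8.17 in ear dermis. Fos stood at 1838 FPKM in tail, 974 in dorsal and 84.9 in ear dermis, and Jun at 938 FPKM in tail, 684 in dorsal and 92.4 in ear dermis. Egr2 had the smallest log2 difference of the list, 1.1. The epidermal libraries had the same order, with Fosb at 554 FPKM in dorsal epidermis and 19.1 FPKM in ear epidermis, and Nr4a1 at 915 FPKM in dorsal epidermis and 11.8 FPKM in ear epidermis. High immediate early RNA was therefore seen in dorsal skin as well as in the tail, and how the cells of each library were handled before sorting is not given in the sources used here.

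Chemokines and cytokines were also higher as a group. Of 21 compared, 12 were higher and 2 lower, with a median log2 difference of 1.00 (10 higher and 0.69 with a pseudocount of 5). Promoter windows of 3 of them are shown because they hold the motif of NF-kB, a factor of inflammation, written as 3 G, any 2 bases, 3 T and 2 C. They are RefSeq sequences of GRCm38.p6 on the plus strand, with matches on either strand in capitals. Cxcl1 lies at chr5:90891136-90891203, Cxcl2 at chr5:90903782-90903850 and Il6 at chr5:30013050-30013099.
Cxcl1: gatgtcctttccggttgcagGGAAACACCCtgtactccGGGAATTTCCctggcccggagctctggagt
Cxcl2: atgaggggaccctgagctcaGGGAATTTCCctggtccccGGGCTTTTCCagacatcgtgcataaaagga
Il6: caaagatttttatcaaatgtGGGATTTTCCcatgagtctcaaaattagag
The NF-kB motif, searched on both strands in the same windows, occurred in 4 of 16 genes of this list with a promoter (Cxcl1, Cxcl2, Il6 and Csf1), against 1.89% of 27025 genes. It occurred in 0 of 19 immediate early genes, which says only that these letters are not in those windows. The letters TGACGTCA, known as the cAMP response element, occurred in 2 of the 19 immediate early promoters, against 2.03% of all genes. The CArG motif, written as CC, a run of A or T bases and GG, also occurred in 2 of the 19, against 1.81% of all genes.

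Cxcl1, which draws neutrophils, stood at 1009 FPKM in tail, 104 in dorsal and 9.62 in ear dermis. Il6 stood at 107 FPKM in tail, 22.9 in dorsal and 1.12 in ear dermis. Cxcl2 stood at 72.4 FPKM in tail, 25.6 in dorsal and 1.22 in ear dermis. All 3 had the order tail, dorsal, ear, with log2 differences of 6.57, 5.67 and 5.05. Ccl2, which draws monocytes, stood at 411 FPKM in tail, 87.9 in dorsal and 25.6 in ear dermis, beside the low macrophage genes of the same tail library. Cxcl14, a chemokine of unstimulated skin, stood at 2005 FPKM in tail, 292 in dorsal and 178 in ear dermis. Ccl19 stood at 70.4 FPKM in tail dermis and is listed at 0 in all 6 other libraries, and it has copies in the genome, so its value is uncertain. It is still counted among the higher genes of the chemokine and cytokine list. The lower genes were Ccl8, at 7.0 FPKM in tail, 713 in dorsal and 144 in ear dermis, and Cxcl13, at 0.26 FPKM in tail, 27.4 in dorsal and 6.08 in ear dermis. Macrophages make both, and the part of the macrophage markers in these values was not tested.

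Other induced genes of inflammation stood among the 15 widest differences on the higher side. Ptx3, a secreted pattern recognition protein, stood at 545 FPKM in tail, 15.2 in dorsal and 4.06 in ear dermis. Tnfaip3, an inhibitor of NF-kB signalling, stood at 489 FPKM in tail, 90.2 in dorsal and 8.01 in ear dermis. Ptgs2, the inducible prostaglandin synthase, stood at 66.4 FPKM in tail, 45.3 in dorsal and 0.467 in ear dermis. Each had the order tail, dorsal, ear. Tpt1 had the widest difference by the naming rule, at 8.17, but it has many processed copies in the genome between which reads can be divided, and its value is uncertain. Of 14 heat shock chaperones 7 were higher and none was lower. Hspa1a and Hspa1b, near-identical copies whose split is uncertain, had log2 differences of 4.50 and 4.29. Hspb1 stood at 178 FPKM in tail, 380.0 in dorsal and 34.4 in ear dermis. Of 13 complement and acute phase genes 4 were higher and 3 lower, with Masp1 at 50.3 FPKM in tail and 9.94 FPKM in ear dermis and C4b at 17.6 FPKM in tail and 59.1 FPKM in ear dermis.

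**Figure D4:**
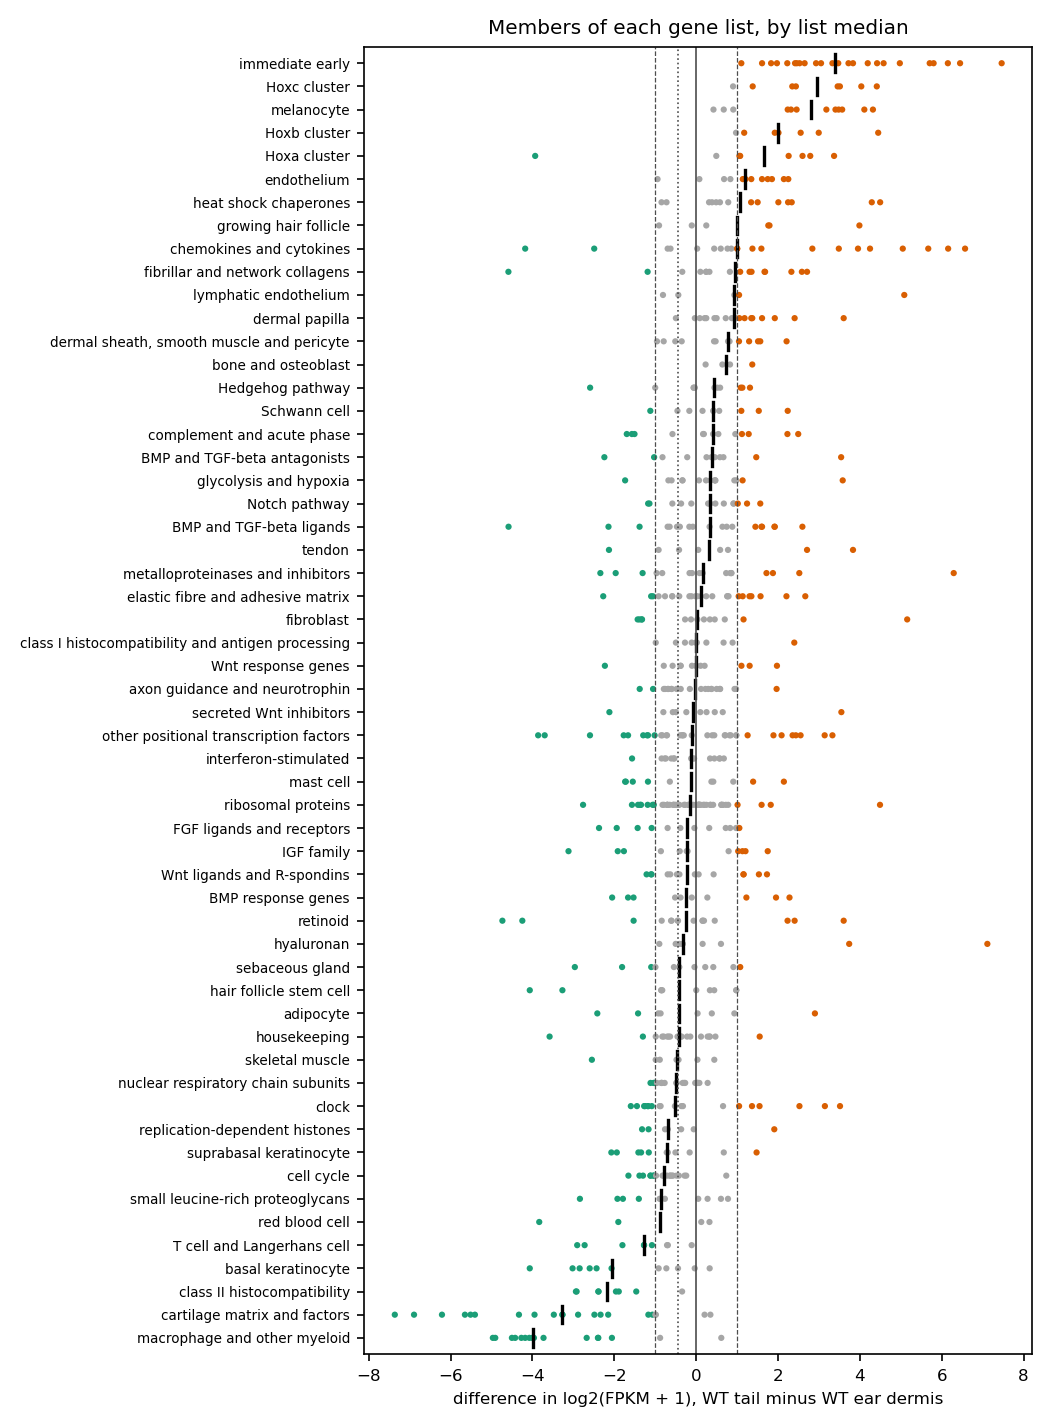
Each row is a gene list with at least 4 genes compared, and each point 1 gene at its log2 difference, WT tail minus WT ear dermis, 1 library each. Black bars are list medians, the dotted line is the median of all genes (-0.45) and dashed lines mark 1 and -1; with these values the lists run from immediate early genes (median 3.40) to macrophage genes (median -3.98), an order that changes with the pseudocount.

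Signalling lists mostly held members on both sides. Over all genes 6.79% were higher and 22.8% lower, and lists near those shares are given as counts alone. Of 19 BMP and TGF-beta ligands 6 were higher and 3 were lower. Inhba, a subunit of activin, stood at 37.6 FPKM in tail, 7.41 in dorsal and 5.39 in ear dermis. Of 11 antagonists 2 were higher and 2 were lower. Grem1, which binds BMPs, stood at 21.1 FPKM in tail, 12.7 in dorsal and 0.90 in ear dermis, and Bmper at 3.9 FPKM in tail, 5.31 in dorsal and 22.2 in ear dermis. Of 10 BMP response genes 3 were higher and 3 lower, and the Id genes split: Id3 stood at 398 FPKM in tail and 81.2 FPKM in ear dermis, Id4 was higher, and Id1 and Id2 were lower, with Id2 at 42.7 FPKM in tail and 180.2 FPKM in ear dermis.

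Of 14 Wnt ligands and R-spondins 4 were higher and 3 were lower (4 and 1 after rescaling), and the median of -0.22 turned to 0.08. Rspo4, known from human nails, stood at 11.9 FPKM in tail, 0.342 in dorsal and 2.88 in ear dermis, and Wnt5a at 35.3 FPKM in tail, 9.05 in dorsal and 15.2 in ear dermis. Of 10 secreted Wnt inhibitors Sfrp4 was higher, at 27.7 FPKM in tail and 1.45 FPKM in ear dermis, and Frzb, which cartilage makes, was lower, at 1.67 FPKM in tail and 10.6 FPKM in ear dermis. Of 13 Wnt response genes 3 were higher and 1 lower. Axin2, the usual readout, stood at 12.9 FPKM in tail and 17.1 FPKM in ear dermis and did not pass. The medians of both lists turned sign after rescaling.

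Of 11 Hedgehog pathway genes 3 were higher (0 with a pseudocount of 5), among them the receptor Ptch1 and the target gene Gli1. Gli1 stood at 15.2 FPKM in tail, 8.43 in dorsal and 6.61 in ear dermis, while no ligand reached 1 FPKM in either library. Boc, a co-receptor, was lower, at 24.1 FPKM in tail, 20.9 in dorsal and 150.4 in ear dermis. Of 15 Notch genes 3 were higher and 2 lower (5 and 0 after rescaling). Of 12 FGF ligands and receptors 1 was higher and 4 lower (4 and 3 after rescaling), with Fgfrl1 at 4.93 FPKM in tail and 29.7 FPKM in ear dermis. Of 22 axon guidance and neurotrophin genes 1 was higher and 2 were lower. Epha3, a guidance receptor, was among the lower ones, at 6.04 FPKM in tail and 17.3 FPKM in ear dermis.

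Of 12 genes of the IGF family 4 were higher and 3 lower. The higher ones were binding proteins, with Igfbp2 at 310.0 FPKM in tail, 7.36 in dorsal and 91.5 in ear dermis. The lower ones were the fetal growth factor Igf2, at 30.1 FPKM in tail, 3.01 in dorsal and 116 in ear dermis, its imprinted neighbour H19, at 1.04 FPKM in tail and 16.7 FPKM in ear dermis, and Igf2bp2. Of 16 retinoid genes 3 were higher and 3 lower. The higher ones were the binding proteins Crabp1 and Crabp2 and the enzyme Aldh1a3, at 9.2 FPKM in tail and 1.17 FPKM in ear dermis. Aldh1a1, which makes retinoic acid, stood at 6.43 FPKM in tail, 38.1 in dorsal and 140.0 in ear dermis, and Cyp26a1, which degrades it, at 0.090 FPKM in tail, 0.529 in dorsal and 28 in ear dermis. Both were lower, by log2 differences of -4.25 and -4.73, and so was Rbp4.

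Clock genes moved both ways, with 6 of 19 higher and 7 lower (2 lower after rescaling, and 2 with a pseudocount of 5). Per1 stood at 82 FPKM in tail, 35.3 in dorsal and 13.4 in ear dermis, while Per3 stood at 5.13 FPKM in tail and 12.8 FPKM in ear dermis and Dbp, an output gene, at 9.39 FPKM in tail and 23.7 FPKM in ear dermis. Nfil3 and Bhlhe40 were higher by 3.52 and 3.15. The hour of collection is not given in the sources used here. Of 21 cell cycle genes none was higher and 7 were lower (1 and 3 after rescaling, and 1 lower with a pseudocount of 5), with Mki67 at 2.11 FPKM in tail, 11.6 in dorsal and 7.12 in ear dermis. Of 15 glycolysis and hypoxia genes Hk2 and Vegfa were higher and Bnip3 was lower, with Hk2 at 44.7 FPKM in tail and 2.82 FPKM in ear dermis. Of 20 respiratory chain genes 4 were lower as deposited and none after rescaling, beside 22.8% and 14% of all genes. The counts of the lists that follow stand beside 6.79% of all genes higher and 22.8% lower. Of 7 replication-dependent histones 1 was higher and 2 were lower. Of 52 ribosomal protein genes 4 were higher and 8 lower, with a median of -0.16 that turned to 0.18 after rescaling. Of 21 housekeeping genes 1 was higher and 2 lower, with a median of -0.42, close to that of all genes. Actb stood at 514 FPKM in tail and 705 FPKM in ear dermis.

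Listed at 0 in ear dermis were 38 genes of the comparison, of which 20 were listed at 0 in all 6 other libraries. Besides Hoxb13 and Hoxa13, these 20 include genes that most cells use. Hmgcs1, an enzyme of cholesterol synthesis, stood at 96.6 FPKM in tail dermis, Mia3, of the export of collagen from the cell, at 36.4 FPKM and its neighbours on chromosome 1, Aida and Brox, at 14.4 and 13 FPKM. For such genes a listing at 0 can be a failed estimate, and no fold is given against it. All 38 genes are still counted among the genes compared and among those called higher.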

How the data were processed

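Total RNA of sorted skin cells was sequenced, and the authors deposited 1 table of FPKM values for 7 libraries. The submitters' processing notes name Cufflinks 2.2.1 and TopHat2 2.0.13 as tools, and mm9 and GRCm38 as builds without the role of either. The table gives no counts, so the depth of each library is unknown here and no counting interval is given. Of 22552 symbols 22290 were matched to RefSeq (GRCm38.p6), 20004 by current symbol and 2286 by synonym. That match gave chromosomes, positions and promoter sequences (250 bases before to 50 after the start).

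Autosomal genes above 0 in tail dermis and at 1 FPKM or more in either library were compared on log2(FPKM + 1), with a pseudocount of 1, and called at a difference of 1. With 1 library per group there is no SD, test or p-value. The naming rule takes all Hox genes, the 15 widest differences per direction, up to 4 members per list and direction, and defining markers. The 15 exclude short RNAs, predicted genes, pseudogenes, genes of under 500 nt or under 5 FPKM, and genes at 0 in either library. Some genes that this rule gives are not reported here. The 57 lists, and the comparison itself, were chosen with earlier results of these data known. Other pseudocounts, filters and scalings were tried. Python 3.11.15, pandas 2.3.3 and numpy 2.4.6 were used. Histone mark, CTCF and chromatin contact data were not analysed here.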

Additional observations from a re-analysis of the deposited data

How the results depend on the processing

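Counts of called genes moved by more than 1.5 times under 2 settings. With a pseudocount of 5, 515 genes were higher and 1041 lower in tail dermis. With tail values divided by the median ratio, 1749 were lower. With a pseudocount of 0.1 the counts were 1054 higher and 3802 lower, with equal totals 764 and 3218, and with genes listed at 0 in the tail kept 847 and 3477. Without a filter they were 847 and 2839, at 5 FPKM or more 700 and 2198, without short RNAs and predicted genes 778 and 2655, and with current RefSeq symbols only, a setting added after the data were seen, 811 and 2637. The median difference over all genes lay between -0.53 and -0.18 over these settings. The Hoxd cluster, with 2 genes compared, was left out of the check of lists. Of the 56 others, the count of higher genes moved by more than 1.5 times in 16 with a pseudocount of 5. That of lower genes moved in 17. With a pseudocount of 0.1 these numbers were 5 and 12. With a pseudocount of 0.1 the Hoxc and Hoxa medians, 5.05 and 4.20, stood above that of the immediate early genes, 3.63. No called value of a named gene changed its sign, but this was fixed in advance. A pseudocount or a filter cannot turn the sign of a gene, and the scalings shift it by less than the rule of 1. The medians of the immediate early, Hoxa, Hoxb, Hoxc, melanocyte, endothelial, cartilage, macrophage and basal keratinocyte lists kept their sign in all settings. For these lists only a change of filter could have turned it. No paired analysis was possible because each group has 1 library. No replicate could be left out for the same reason, and no spread between animals is known for any value. The unknown depth limits what can be said of genes near the filter, and the tail values are rounded to 2 decimals, which is coarse for levels under 0.1 FPKM.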
